A study of Arabidopsis thaliana with 21 samples.

Results

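The nitrate reductase genes NIA1 (AT1G77760) and NIA2 (AT1G37130), the nitrite reductase gene NIR1 (AT2G15620) and UPM1 (AT5G40850) were followed in Arabidopsis roots and leaf protoplasts. These 4 genes, matched by locus identifier in each of the deposited tables, were taken from 2945 genes listed in any table. All 4 were among the 1128 genes listed in roots, and 2 of them, NIA1 and NIR1, were among the 2065 genes listed in protoplasts. The tables hold only genes that the authors selected for a response to nitrate or to transfection, so NIA2 and UPM1 were not analysed here in protoplasts.

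Nitrate reductase turns nitrate into nitrite in the cytosol with a molybdenum cofactor, and nitrite reductase turns nitrite into ammonium in the plastid with a sirohaem cofactor and electrons from ferredoxin. UPM1 encodes uroporphyrinogen III methyltransferase, which makes the precursor of sirohaem. Transcripts of these genes are textbook markers of the primary nitrate response in roots, and NLP7 is a transcription factor of that response. KIN10 carries the kinase activity of the SnRK1 complex, an energy sensor, and SnRK1 kinases are known from spinach to phosphorylate nitrate reductase protein as well.

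Root libraries came from the wild type Ler and from p35S:KIN10-HA seedlings (KIN10ox), in which the broadly active 35S promoter drives HA-tagged KIN10. How many independent transgenic lines were used is not given in the sources used here. All root groups shared 7 days on MGRL medium with 5 mM nitrate and then 2 days without nitrogen, followed by 1 h with KCl or KNO3 at 5 mM, which gave Ler KCl, Ler KNO3, KIN10ox KCl and KIN10ox KNO3. One label of the KIN10ox libraries describes the harvested roots as wild type, and the genotype label was followed. Protoplasts were made from leaf mesophyll of soil-grown Col-0 plants aged 4 weeks under 8 h of light and 16 h of dark, and were transfected to express GFP, NLP7-GFP, or NLP7-GFP together with KIN10-Myc. Each of the 7 groups had 3 libraries, which the labels call biological replicates. In roots each library held 19699540 to 20231018 mapped fragments, and in protoplasts 16186562 to 20428772. Levels are in FPKM, fragments per kilobase of transcript scaled to the mapped fragments of a library, which is a level per length and can be set side by side between genes. The KIN10 transcript itself could not be used to check the KIN10ox label, since its root level was not analysed here, and none of 6 root cell markers was listed there. Transcripts of 6 leaf photosynthesis genes were listed in roots. Their summed level was 231, 95.4 and 399 FPKM in the KIN10ox KCl libraries 1 to 3, against 91.5 to 196 FPKM in Ler KCl, 90.9 to 99.4 FPKM in Ler KNO3 and 43.7 to 56.6 FPKM in KIN10ox KNO3. The main results on the members that rest on KIN10ox KCl are therefore also given without its libraries 1 and 3, which leaves library 2 alone in that group. Library 1 of Ler KCl, the one at 196 FPKM, was kept in those results.

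The reference gene models (TAIR10.1, RefSeq) place NIA1 on the minus strand at chr1:29235721-29239484 with 4 exons. NIA2 lies on the plus strand at chr1:14158452-14161938 with 3 exons, NIR1 on the plus strand at chr2:6810395-6812941 with 4 exons, and UPM1 on the plus strand at chr5:16365900-16369316. NIA1 and NIA2 are paralogs with coding sequences of 2754 bases each, 73.8% identical over the 2724 aligned positions. The longest stretch that their spliced transcripts share is 20 bases, and none of the 3126 windows of 30 bases in NIA1 occurs in NIA2. For UPM1, 3 transcripts with 2 start positions are annotated, at 16365900 and 16366353, and the deposited values do not separate them.

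The 4 genes moved together with nitrate, so the stretches around their annotated starts were read for the core letters of the nitrate-responsive cis-element, the motif that NLP proteins are known to bind. The search used CTT and AAG with 10 bases of any kind between them, a pattern that reads the same on both strands, in 250 bases before and 150 bases from each start. A stricter form asked for CCTT in place of CTT on either strand, and each of its matches contains a match of the first form. NIR1 had a match of both forms in the 5′ untranslated part of its first exon, beginning at base 68 counted from 1 at its start, within chr2:6810456-6810485 (+). UPM1 had one in 5′ untranslated sequence too, beginning at base 53 from its second start, within chr5:16366399-16366428 (+), where a match on the opposite strand begins 1 base later. The 30 bases that hold each stricter match are shown with the match in capitals.
NIR1: cttgacCCTTTACATTGCTCAAGagctcat
UPM1: gattccCCTTGAAAGCATCAAAGggttagt
NIA1 and NIA2 had 0 matches of either form in the whole window. Of 40817 annotated starts of protein-coding transcripts, 14.2% had the first form in the same window and 4.03% had the stricter form. These shares are per start, and UPM1 was searched at each of its starts. In the 250 bases before the gene start, shown next so that the members can be set beside each other, only UPM1 among the 4 genes held the first form (in capitals, beginning 207 bases before the start), which 8.26% of all starts held there. The windows are chr1:29239485-29239734 (−) for NIA1, chr1:14158202-14158451 (+) for NIA2, chr2:6810145-6810394 (+) for NIR1 and chr5:16365650-16365899 (+) for UPM1.
NIA1: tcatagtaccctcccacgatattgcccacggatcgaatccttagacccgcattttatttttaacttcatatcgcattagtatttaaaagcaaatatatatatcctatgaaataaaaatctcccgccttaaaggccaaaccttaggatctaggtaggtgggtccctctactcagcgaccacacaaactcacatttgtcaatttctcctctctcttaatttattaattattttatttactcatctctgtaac
NIA2: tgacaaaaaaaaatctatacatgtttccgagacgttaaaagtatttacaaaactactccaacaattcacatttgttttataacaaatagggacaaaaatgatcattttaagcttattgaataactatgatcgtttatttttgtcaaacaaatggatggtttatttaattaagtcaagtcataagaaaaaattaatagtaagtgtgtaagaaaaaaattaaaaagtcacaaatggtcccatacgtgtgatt
NIR1: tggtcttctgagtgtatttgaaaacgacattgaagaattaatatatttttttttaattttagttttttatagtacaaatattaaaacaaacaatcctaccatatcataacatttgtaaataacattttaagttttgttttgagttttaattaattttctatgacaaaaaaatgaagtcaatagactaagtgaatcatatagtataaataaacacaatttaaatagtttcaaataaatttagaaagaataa
UPM1: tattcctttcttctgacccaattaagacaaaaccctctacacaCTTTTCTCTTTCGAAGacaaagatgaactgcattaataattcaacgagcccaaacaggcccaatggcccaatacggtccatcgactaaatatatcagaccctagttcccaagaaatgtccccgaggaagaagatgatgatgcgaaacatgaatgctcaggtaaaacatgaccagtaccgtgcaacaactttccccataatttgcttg
These windows differ in base composition, from 19.2% G and C in NIR1 to 42.0% in UPM1, against a median of 32.0% over all starts. A match is a description of the letters, and no binding was measured.

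Nitrate for 1 h raised all 4 genes in Ler roots, and the genes for nitrite reduction and its cofactor rose by larger factors than those for nitrate reduction. NIA1 stood at 111, 120 and 113 FPKM in the Ler KCl libraries and at 883, 896 and 1031 FPKM in the Ler KNO3 libraries. NIA2 stood at 372, 374 and 385 FPKM with KCl and at 989, 999.9 and 1039 FPKM with KNO3. Before nitrate NIA2 was therefore the most abundant of the 4 transcripts, and NIA1 came within its range only after nitrate.

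NIR1 went from 113, 109 and 98.3 FPKM to 1440, 1401 and 1430 FPKM. UPM1 went from 41.1, 41.1 and 46.7 FPKM to 471, 418 and 456 FPKM. No KNO3 library overlapped a KCl library for any of the 4 genes. The mean rose 13.4 ± 0.548-fold (SE, n = 3) for NIR1, 10.4 ± 0.586-fold for UPM1, 8.19 ± 0.457-fold for NIA1 and 2.68 ± 0.0495-fold for NIA2. In the authors' deposited table the log2 fold changes are 3.84, 3.50, 3.13 and 1.52 in that order, with an adjusted p of 6.71e-135 for NIA2 and values written as 0 for the others. The tables were selected on this response, so a rise of listed genes is no independent finding. Among the 972 root genes tested here, edgeR called 53.8% higher with nitrate in Ler, and libraries did not overlap for 81.2%.

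**Figure D1:**
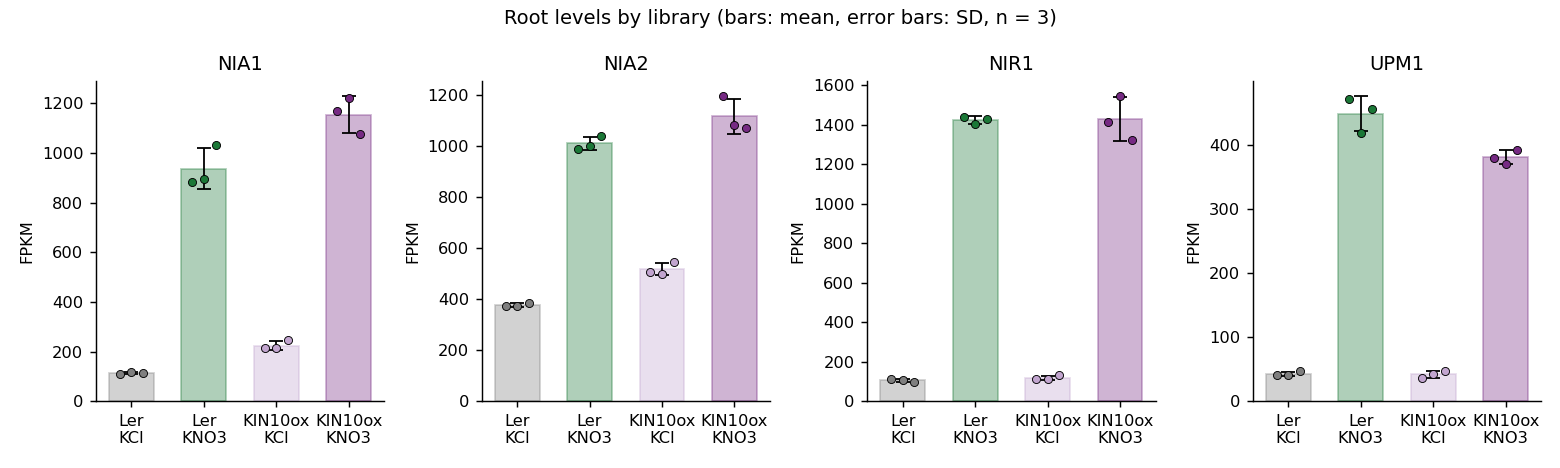
Level of each gene in FPKM (linear axes from 0, each gene with its own scale) in the 3 libraries of each root group, with bars for the mean and error bars for the SD. The KNO3 libraries lie above the KCl libraries for each gene and genotype, and the KIN10ox KCl libraries of NIA1 and NIA2 lie above those of Ler KCl.

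In the KIN10ox roots nitrate raised the same 4 genes, again without overlap. For NIA1 the KCl libraries stood at 214, 213 and 246 FPKM and the KNO3 libraries at 1169, 1220 and 1075 FPKM. For NIA2 they stood at 507, 500.1 and 545 FPKM and at 1194, 1082 and 1071 FPKM. Both nitrate reductase genes thus began from a higher level in KIN10ox than in Ler. NIR1 went from 111, 112 and 132 FPKM to 1414, 1543 and 1323 FPKM, and UPM1 from 36.4, 43.4 and 46.9 FPKM to 379, 370.2 and 392 FPKM. Mean folds were 12.1 ± 0.879 for NIR1, 9.02 ± 0.675 for UPM1, 5.15 ± 0.312 for NIA1 and 2.16 ± 0.0954 for NIA2. The authors' deposited table gives log2 fold changes of 3.80, 3.35, 2.57 and 1.31. Without the KIN10ox KCl libraries 1 and 3 the edgeR log2 differences were 3.67 for NIR1, 3.17 for UPM1, 2.44 for NIA1 and 1.16 for NIA2, against 3.59, 3.14, 2.36 and 1.11 with them. Of the tested root genes edgeR called 51.6% higher here, and libraries did not overlap for 86.2%.

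Among the 4 members, the clearest difference between the genotypes was in the nitrate reductase genes without nitrate. With KCl, NIA1 and NIA2 were higher in KIN10ox than in Ler, while NIR1 and UPM1 did not pass the test. NIA1 was 1.96 ± 0.105-fold higher, a log2 difference of 0.97 ± 0.09 (SE, adjusted p = 5.36e-05, edgeR quasi-likelihood test with Benjamini-Hochberg adjustment over 972 genes). NIA2 was 1.37 ± 0.0395-fold higher, a log2 difference of 0.46 ± 0.07 (edgeR adjusted p = 0.00118). For both genes each KIN10ox library lay above each Ler library. NIR1 differed by 0.15 ± 0.09 (95% interval −0.04 to 0.35, edgeR adjusted p = 0.313) and UPM1 by 0.01 ± 0.10 (95% interval −0.21 to 0.23, edgeR adjusted p = 0.968). The libraries of the genotypes overlapped for both. edgeR called 2 of the 4 members higher, against 7.72% of the genes tested, and libraries did not overlap for 2 of 4, against 31.9%.

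By p value NIA1 stood 2nd and NIA2 19th of the 972 genes in this comparison. In FPKM gained, NIA2 (140.4 FPKM) and NIA1 (109.99 FPKM) stood 1st and 2nd among all 1128 listed root genes, and the gain in NIR1 was 11.9 FPKM. A rank by FPKM gained favours abundant genes. By fold, NIA1 stood 16th and NIA2 89th of the 507 listed root genes with a mean of at least 5 FPKM. Without the KIN10ox KCl libraries 1 and 3, in which leaf photosynthesis transcripts were high, NIA1 was higher by 0.90 ± 0.12 on the log2 scale (edgeR adjusted p = 0.00431) and NIA2 by 0.41 ± 0.10 (edgeR adjusted p = 0.0424), with the single remaining library assumed to vary like the other groups. The rise of NIA2 missed the threshold, with its direction kept, when counts were scaled over the listed genes alone (log2 difference 0.36, adjusted p = 0.0526 with TMM factors and 0.0613 with size factors). In bulk roots, more cells of a type and more RNA per cell cannot be told apart.

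With KNO3, 1 of the 4 members was called between the genotypes. NIA1 was 1.23 ± 0.0773-fold higher in KIN10ox, a log2 difference of 0.30 ± 0.09 just under the threshold (edgeR adjusted p = 0.0471). This call was lost in 9 of the 12 fits that each left out 1 library, with adjusted p values of 0.0315 to 0.163 and log2 differences of 0.26 to 0.38 over all 12 (edgeR). NIA2 differed by 0.14 ± 0.07 (95% interval −0.01 to 0.29, edgeR adjusted p = 0.205), and NIR1 by 0.00 ± 0.09 (95% interval −0.20 to 0.20, edgeR adjusted p = 0.997). UPM1 was the member with a lower mean in KIN10ox, at 380.4 ± 10.7 against 448 ± 27.3 FPKM (SD, n = 3), a log2 difference of −0.24 ± 0.10 (95% interval −0.46 to −0.02, edgeR adjusted p = 0.137). Each of its KIN10ox KNO3 libraries lay below each Ler KNO3 library, yet it did not pass the test. Scaled with TMM factors over the listed genes, the log2 difference was −0.02 for UPM1 and 0.24 for NIR1, and it was 0.53 for NIA1 (edgeR adjusted p = 0.0326) and 0.37 for NIA2 (edgeR adjusted p = 0.05), of which NIA1 passed the threshold. Libraries did not overlap for 3 of the 4 members, against 36.2% of genes, and 1 of 4 was called higher, against 2.67%. The median of all tested genes was −0.19 on the log2 scale in this comparison and 0.09 with KCl.

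**Figure D2:**
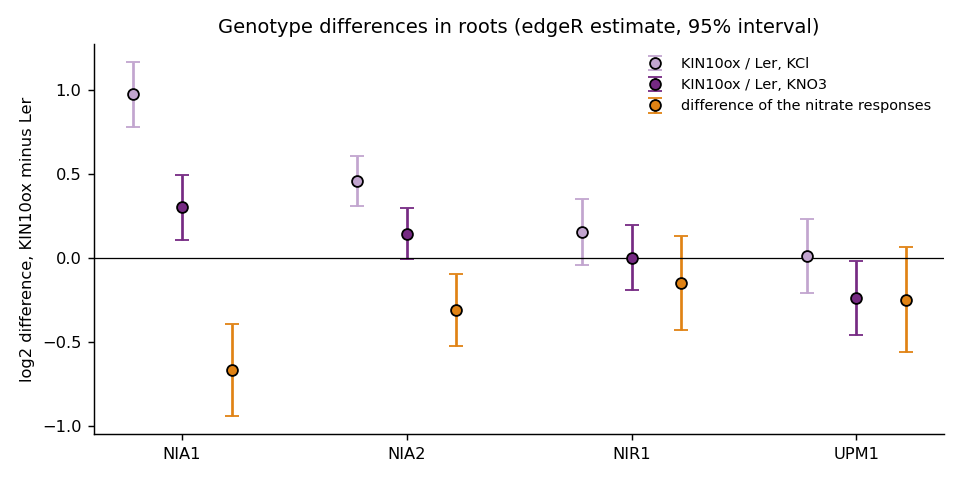
Log2 differences between KIN10ox and Ler for each gene with KCl and with KNO3, and the difference of the nitrate responses (KIN10ox response minus Ler response), with edgeR estimates as points and 95% intervals as bars. The KCl estimates of NIA1 (0.97) and NIA2 (0.46) stand farthest above 0, and the response differences of NIA2, NIR1 and UPM1 change sign when counts are scaled over the listed genes.

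Whether the nitrate response itself differed was tested as an interaction. On the log2 scale the response of NIA1 was smaller in KIN10ox by 0.67 (−0.67 ± 0.13, 95% interval −0.94 to −0.40, edgeR adjusted p = 0.0519), which missed the threshold. NIA1 stood 3rd by p value, and 0 of 972 genes were called by edgeR (0%), with 187 at an unadjusted p under 0.05. DESeq2 called 41 genes, NIA1 among them (−0.67, adjusted p = 0.000821). The edgeR call on NIA1 was also made without Ler KCl library 1 (adjusted p = 0.044) and without KIN10ox KCl library 2 (0.0252). Without the KIN10ox KCl libraries 1 and 3 its estimate was −0.60 ± 0.15 (edgeR adjusted p = 0.223), and edgeR called 1 gene.

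For NIA2 the difference of responses was −0.31 ± 0.10 (edgeR adjusted p = 0.129), for UPM1 −0.25 ± 0.14 (0.366) and for NIR1 −0.15 ± 0.13 (0.517). Without the KIN10ox KCl libraries 1 and 3 these were −0.27 for NIA2, −0.22 for UPM1 and −0.08 for NIR1 (edgeR adjusted p of 0.398, 0.566 and 0.831). The median of all tested genes was −0.26, so UPM1 and NIR1 lay at or above it and NIA2 only slightly below it. These 3 estimates change sign when counts are scaled over the listed genes, which moves the median to 0.06 with TMM factors and 0.05 with size factors. With TMM factors they were 0.01 for NIA2, 0.07 for UPM1 and 0.19 for NIR1, and NIA1 kept its direction at −0.34 (edgeR adjusted p = 0.403).

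Counted as FPKM added by nitrate, and not as a ratio, the mean response of NIA1 was not smaller in KIN10ox. NIA1 gained 822 ± 47.6 FPKM in Ler and 930.4 ± 43.9 FPKM in KIN10ox, a difference of 108 ± 64.7 FPKM (SE). The gain of NIA2 was 632 ± 15.8 against 598 ± 41.7 FPKM, a difference of −34.3 ± 44.5 FPKM, and that of NIR1 was 1317 ± 12.6 against 1308 ± 64.1 FPKM, a difference of −8.75 ± 65.3 FPKM. On the log2 scale the edgeR estimate of the NIA1 response was smaller in KIN10ox but not called, and NIA1 started higher with KCl. How the log2 estimate, the starting level and the gain of NIA1 relate was not tested. UPM1 gained 405 ± 15.9 FPKM in Ler and 338 ± 6.90 FPKM in KIN10ox, a difference of −66.8 ± 17.3 FPKM, or −16.5% of the Ler gain. UPM1 was the member whose gain differed by more than 2 standard errors, and how many of all listed genes did so was not counted. Its log2 difference with KNO3 (−0.24) lay near the median of all tested genes (−0.19). With TMM factors over the listed genes that difference was −0.02. Leaving out 1 library at a time gave differences of −73.5 to −12.0 FPKM for NIA2, and of −82.0 to −55.5 FPKM for UPM1. Without the KIN10ox KCl libraries 1 and 3 the differences were 120 FPKM for NIA1, −17.2 FPKM for NIA2, −2.63 FPKM for NIR1 and −68.0 FPKM for UPM1. The gain of NIR1 was the 5th largest of all 1128 listed root genes in both genotypes.

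Ratios within a library do not depend on its total and show how the balance of the pathway moved. In Ler, NIA1 stood at 0.304 ± 0.0142 of NIA2 with KCl (SD, n = 3) and at 0.927 ± 0.0567 with KNO3. In KIN10ox it stood at 0.433 ± 0.0158 and 1.04 ± 0.0797. The balance of the nitrate reductase transcripts thus moved from an excess of NIA2 to near equality with nitrate in both genotypes, and KIN10ox began nearer to equality. With KCl the KIN10ox ratios did not overlap the Ler ratios (two-sided exact permutation p = 0.1, the smallest that 3 against 3 libraries can give), and with KNO3 they did (exact permutation p = 0.2).

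Nitrite reductase transcript relative to the sum of both nitrate reductase transcripts rose from 0.217 ± 0.0181 to 0.733 ± 0.0399 in Ler and from 0.159 ± 0.00683 to 0.628 ± 0.0374 in KIN10ox. This ratio was lower in KIN10ox with each salt, and the libraries of the genotypes overlapped with neither (exact permutation p = 0.1 each). NIR1 relative to UPM1 moved less with nitrate, from 2.50 ± 0.344 to 3.18 ± 0.152 in Ler and from 2.82 ± 0.230 to 3.76 ± 0.395 in KIN10ox. For this ratio the genotypes overlapped with KCl (exact permutation p = 0.3) and not with KNO3 (exact permutation p = 0.1). The members together took 0.172 ± 0.00158% of all mapped fragments in Ler KCl and 0.923 ± 0.0334% in Ler KNO3, and 0.247 ± 0.0156% and 1.00 ± 0.0462% in KIN10ox. In KIN10ox KCl library 2 alone, NIA1 stood at 0.426 of NIA2, NIR1 at 0.157 of the summed nitrate reductase transcripts and at 2.59 times UPM1, and the members took 0.238% of mapped fragments.

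**Figure D3:**
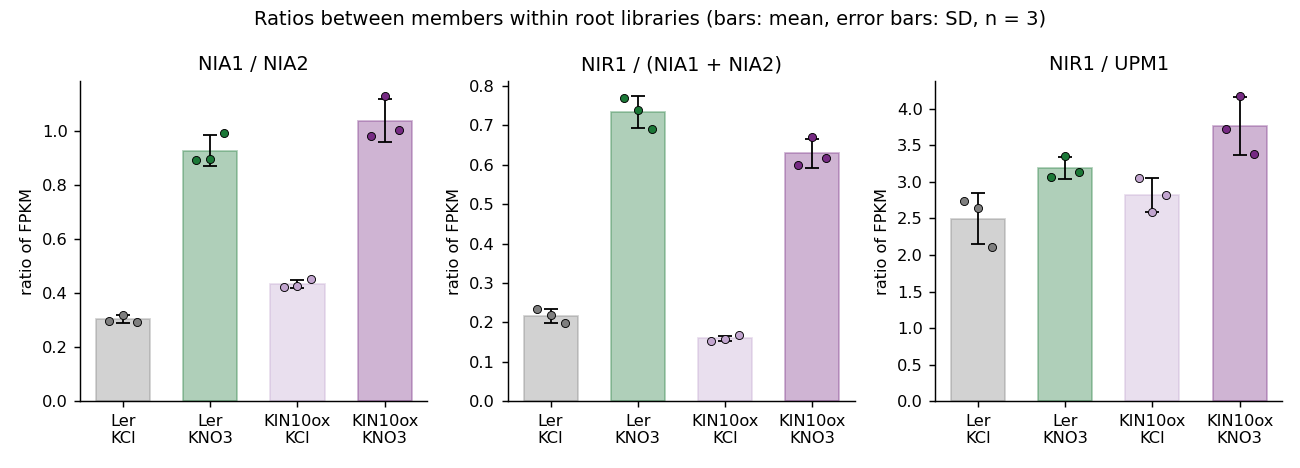
Ratios of FPKM between members within each root library (linear axes from 0), with bars for the mean and error bars for the SD of 3 libraries. NIA1 nears NIA2 with nitrate in both genotypes, and NIR1 relative to the summed nitrate reductase transcripts is lower in KIN10ox than in Ler with either salt.

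The order of the 4 levels changed with nitrate. In Ler KCl it ran NIA2, NIA1, NIR1, UPM1, with NIA1 and NIR1 overlapping. In Ler KNO3 it ran NIR1, NIA2, NIA1, UPM1, with NIA2 and NIA1 overlapping. KIN10ox KCl kept the order of Ler KCl with no overlap between neighbours, and in KIN10ox KNO3 the order was NIR1, NIA1, NIA2, UPM1, where NIA1 and NIA2 overlapped. UPM1 was lowest in each root group.

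In leaf protoplasts NLP7 raised NIA1 and NIR1, and their levels were lower again where KIN10 was expressed with NLP7. NIA1 stood at 224, 170.03 and 161 FPKM with GFP, at 772, 715 and 692 FPKM with NLP7, and at 299, 305 and 369.9 FPKM with NLP7 and KIN10. NIR1 stood at 217, 190.2 and 189 FPKM, at 853, 779 and 905 FPKM, and at 332, 326 and 386 FPKM. For both genes the 3 groups did not overlap, with NLP7 and KIN10 together in the middle.

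With NLP7, NIA1 was 3.93 ± 0.435-fold and NIR1 4.26 ± 0.268-fold above GFP. The authors' deposited table gives log2 fold changes of 1.93 (adjusted p = 1.48e-61) and 2.04 (adjusted p = 7.47e-107), and it was selected on this comparison, in which edgeR called 91.3% of 1722 tested protoplast genes higher and libraries did not overlap for 98.1%. Scaled with TMM factors over the listed genes, NIA1 with NLP7 was no longer called (log2 difference 0.145, edgeR adjusted p = 0.262), and the log2 difference of NIR1 went from 2.09 to 0.255 (edgeR adjusted p = 0.0325). With size factors they were 0.314 and 0.426, both called. With NLP7 and KIN10 the folds over GFP were 1.76 ± 0.223 (edgeR adjusted p = 0.000203) and 1.75 ± 0.125 (5.47e-05). Neither gene is in the authors' deposited table for that comparison, in which edgeR called 31.6% of the protoplast genes higher and libraries did not overlap for 48.4%.

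Set directly against NLP7 alone, NLP7 with KIN10 gave a 2.24 ± 0.172-fold lower level of NIA1 (log2 difference −1.16 ± 0.14, edgeR adjusted p = 1.3e-06) and a 2.43 ± 0.170-fold lower level of NIR1 (−1.28 ± 0.12, edgeR adjusted p = 1.25e-07) when scaled by all mapped fragments. In that comparison edgeR called 86.4% of genes lower, libraries did not overlap for 90.8%, and the median of all tested genes was −1.47, so both genes fell less than the median listed gene. When counts were scaled over the listed genes alone, most of which rise with NLP7, the median moved to 0.01 with TMM factors and −0.20 with size factors. NIA1 then had log2 differences of 0.32 and 0.11 and NIR1 of 0.20 and −0.01, so the fall of both genes holds on the scale of all mapped fragments. The ratio of NIR1 to NIA1, which needs no scaling, was 1.09 ± 0.106 with GFP, 1.17 ± 0.121 with NLP7 and 1.07 ± 0.0326 with NLP7 and KIN10, with overlapping libraries (exact permutation p of 0.3 to 0.9). In roots the same ratio moved with nitrate from 0.932 ± 0.0749 to 1.53 ± 0.127 in Ler. In KIN10ox it moved from 0.527 ± 0.00948 to 1.235 ± 0.0277, and KIN10ox KCl library 2 alone stood at 0.527. The root libraries of the genotypes did not overlap in this ratio with either salt (exact permutation p = 0.1 each). The ratio of NIR1 to NIA1 was added to the ratios planned, and in roots it draws on the NIA1 and NIR1 levels already compared above.

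The transfected genes differed between these groups as well. NLP7 transcript, plant and plasmid copies together, stood at 52.7, 53.7 and 43.2 FPKM with GFP, at 2261, 1536 and 1950 FPKM with NLP7, and at 280.2, 212 and 417 FPKM with NLP7 and KIN10. It was thus 6.32 ± 1.44-fold lower where KIN10 was added. KIN10 transcript was 32.4 ± 0.763 FPKM with GFP, 27.9 ± 1.97 FPKM with NLP7 and 413 ± 130 FPKM with both. On the scale of all mapped fragments, part of the level that NLP7 added over GFP was left with KIN10 present. That part was 25.9 ± 5.08% for NIA1 and 23.1 ± 3.40% for NIR1, beside 13.6 ± 3.59% for the NLP7 transcript itself. Such shares were not computed with counts scaled over the listed genes. The lower level of NIA1 and NIR1 with KIN10 and the lower level of NLP7 transcript cannot be told apart in these groups. Library 3 of NLP7 with KIN10 was the highest of its group for NLP7, NIA1 and NIR1, and also for KIN10 (546 FPKM, against 407 and 287 FPKM in libraries 1 and 2).

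**Figure D4:**
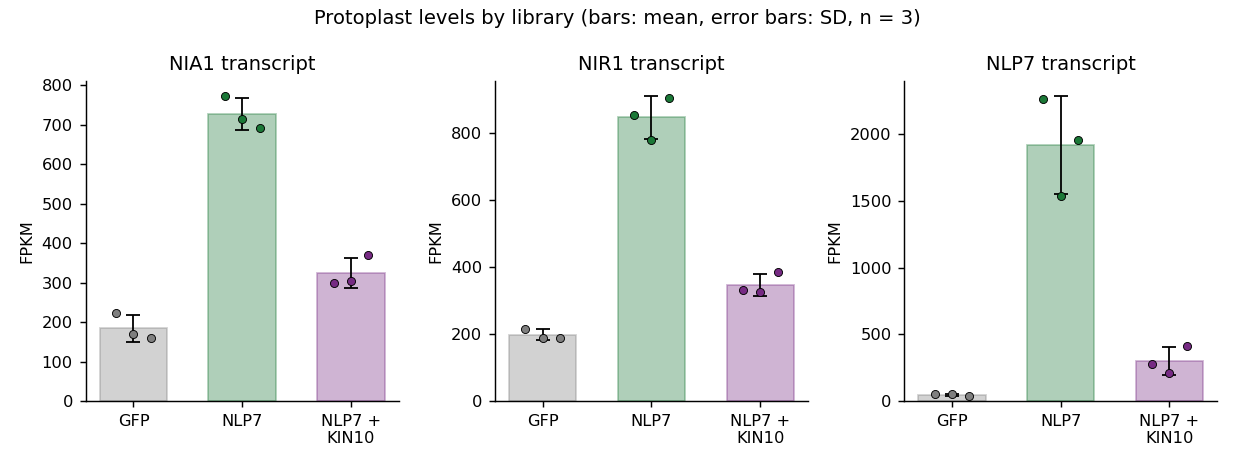
Levels of NIA1, NIR1 and NLP7 transcripts in FPKM (linear axes from 0, each with its own scale) in the 3 protoplast libraries of each group, with bars for the mean and error bars for the SD. For each transcript the NLP7 with KIN10 libraries lie between GFP and NLP7 on this scale of all mapped fragments, while scaling over the listed genes reverses the fall of NIA1 and, with TMM factors, that of NIR1.

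Genes that serve the same pathway were counted from 6 lists, by the share listed and called. Of 9 molybdenum cofactor genes, 2 were listed in roots. CNX6, a subunit of molybdopterin synthase, stood at 25.0 FPKM in Ler KCl and 49.4 FPKM in Ler KNO3, and MOT2, a molybdate transporter, at 48.7 and 114.6 FPKM. Neither was called between the genotypes with either salt. Of 12 sirohaem and early tetrapyrrole genes 1 was listed, SIR, the sulfite reductase that also carries sirohaem, at 89.6 FPKM in Ler KCl and 174.4 FPKM in Ler KNO3. It too was called in neither genotype comparison.

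Reductant supply was listed in 7 of 9 genes, each called higher with nitrate in both genotypes, as were 53.8% of all tested root genes in Ler and 51.6% in KIN10ox. The root ferredoxin reductases were the genes of this list called between genotypes, both lower in KIN10ox with KNO3. RFNR2 stood at 2099 ± 76.2 FPKM in Ler KNO3 and 1640.0 ± 202 FPKM in KIN10ox KNO3 (log2 difference −0.35 ± 0.10, edgeR adjusted p = 0.0387), and RFNR1 at 561 ± 25.2 and 423 ± 14.1 FPKM (−0.41 ± 0.08, edgeR adjusted p = 0.00804). Leaving out 1 library gave adjusted p values of 0.0212 to 0.129 for RFNR2 and of 0.00555 to 0.04 for RFNR1 (edgeR). RFNR2 stood at 0.0515 without the KIN10ox KCl libraries 1 and 3, and TMM scaling over the listed genes ended both calls (−0.14 and −0.18, edgeR adjusted p of 0.362 and 0.352). Lower calls were made for 2 of 7 genes of the list, against 8.74% of all tested genes. The median of the list was −0.24 in that comparison, beside −0.19 over all tested genes. Ferredoxin FD3 (1804 against 1723 FPKM) and the phosphogluconate dehydrogenase PGD3 (1005 against 988 FPKM) were not called. In protoplasts 8 of 9 were listed, and edgeR called all 8 higher with NLP7 and all 8 lower with KIN10 added to NLP7, with medians of 1.59 and −1.25 beside 1.84 and −1.47 over all tested genes. Of all tested protoplast genes 91.3% were called higher and 86.4% lower in these comparisons.

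Ammonium assimilation was listed in 3 of 11 genes in roots, GLN2, GLT1 and ASN2. ASN2, an asparagine synthetase, was higher in KIN10ox with KCl (30.6 against 24.2 FPKM, log2 difference 0.33 ± 0.09, edgeR adjusted p = 0.0317). That call was lost with TMM scaling over the listed genes (0.23, edgeR adjusted p = 0.0997), without the KIN10ox KCl libraries 1 and 3 (0.34, edgeR adjusted p = 0.243), and in the fits that each left out 1 of 5 KCl libraries, Ler KCl 3 being the exception (highest edgeR adjusted p = 0.111). GLN2, the plastid glutamine synthetase, stood at 106 FPKM with KCl in both genotypes, and GLT1, the NADH-dependent glutamate synthase, at 83.1 FPKM in Ler and 94.6 FPKM in KIN10ox. In protoplasts GLN2, ASN1 and ASN2 were listed, 3 of 3 called higher with NLP7 and 3 of 3 lower when KIN10 was added, on the scale of all mapped fragments, against 91.3% higher and 86.4% lower of all tested genes. Nitrate and nitrite transport was listed in 5 of 6 genes, with none called between genotypes: with KNO3, NRT3.1 stood at 3164 FPKM in Ler and 2956 FPKM in KIN10ox, NRT2.1 at 2759 and 2732 FPKM, and NPF6.3 at 404 and 409 FPKM. NRT2.1 has a neighbouring near copy, NRT2.2, with which it may share reads. In protoplasts NRT2.1 and NRT3.1 were listed, 2 of 2 called higher with NLP7 and 2 of 2 lower when KIN10 was added, against the same 91.3% and 86.4% on that scale. NRT2.1 was near the floor in protoplasts, with means of 0 FPKM with GFP, 0.453 FPKM with NLP7 and 0.02 FPKM with NLP7 and KIN10. Of the haemoglobins, known for removing nitric oxide, 2 of 2 were listed and neither was called between genotypes, with HB1 at 5.69 FPKM in Ler KCl and 40.2 FPKM in Ler KNO3. No gene of the molybdenum cofactor, tetrapyrrole or haemoglobin lists was listed in protoplasts.

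Among the 604 root genes that reached a group mean of 5 FPKM, each member was set beside those with the most similar pattern over the 12 root libraries, by the root mean square difference of centred log2(FPKM + 1). Nearest to NIA1 were HRS1 (0.205), a nitrate-induced repressor, NPF6.3 (0.32), the dual-affinity nitrate transporter, and GSTF14 (0.324). NIA2 had IP5PII (0.137), AT4G25620 (0.155) and PGSIP7 (0.158) as its neighbours. NIR1 had G6PD3 (0.178), AT3G07350 (0.224) and AT5G65980 (0.245), and UPM1 had RFNR2 (0.114), PGD3 (0.117) and RFNR1 (0.127). G6PD3, PGD3, RFNR1 and RFNR2 of these also stood in the reductant list. With a pseudocount of 5, 1 of the 3 genes was kept for NIA2 and for NIR1. NIR1 and UPM1 were each among the nearest to the other, UPM1 6th of 603 for NIR1 and NIR1 11th for UPM1. The measure also rises with a difference in the size of a change, and by it NIA1 was 360th of 603 for NIA2 and NIA2 116th for NIA1, with 0.741 between them. The Pearson correlation, which does not depend on the size of a change, was 0.998 for NIA1 with NIA2. It was 0.996 for NIR1 with UPM1 and 0.957 for UPM1 with NIA1 and with NIA2. The nearest genes named above had correlations of 0.971 to 0.998 with their member. Listed root genes were selected for a response to nitrate, and the correlation over all pairs of them was not computed. HRS1 went from 7.58 to 80.6 FPKM in Ler and from 14.0 to 98.5 FPKM in KIN10ox.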

How the data were processed

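RNA sequencing values of 21 libraries were used, 12 of roots and 9 of protoplasts, 3 in each of 7 groups taken from the labels. Per the submitters' processing notes, HISAT and Bowtie2 were used with the TAIR10 genome, and the tool versions, strand handling and counting method are not stated in the sources used. One label field of the protoplasts names Ler seedlings, and the genotype field, Col-0, was followed, as it was for the KIN10ox libraries, whose protocol label speaks of wild-type roots. The deposited tables hold selected genes only: 770 for nitrate in Ler, 862 for nitrate in KIN10ox, and in protoplasts, each against GFP, 1985 for NLP7 and 455 for NLP7 joined by KIN10.

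Per the file headers, the authors give FPKM, TPM and expected counts for each library. The authors' deposited tables also give a log2 fold change, a p-value and an adjusted p. DESeq2 is named in the headers, whereas the design text names NOISeq (2-fold, probability above 0.8). A further 18 protoplast columns match no sample in the labels and were left unused.

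Library totals were recovered from expected counts and FPKM of genes with at least 200 counts. Expected counts were rounded and tested with edgeR 4.0.16 (quasi-likelihood, R 4.3.3) on all libraries of a tissue with those totals, after filterByExpr (972 of 1128 root genes and 1722 of 2065 protoplast genes), with Benjamini-Hochberg adjustment over the genes tested and a threshold of 0.05. The adjustment covers listed genes, which were selected on the same libraries. Folds are ratios of mean FPKM with the SE from the SD of each group. Intervals are 95%, from the edgeR standard error. The fits were also run on simulated data with as many rises as falls and with known library totals. That setting cannot test the choice of scale, since the listed genes shift mostly in 1 direction in several comparisons. DESeq2 1.42.0, other scalings, no filter, TPM, a replicate block and leaving out libraries were tried; scaling to TPM, and gains and ratios without the KIN10ox KCl libraries 1 and 3, were added after the values were seen. Permutation tests of 3 against 3 libraries cannot go below 0.1. Members and gene lists were chosen with earlier results of these data known. Named were the 4 members, list genes called between genotypes, the 3 most abundant of each list, and the 3 genes most like each member. HB1 was named as an example of its list, and NLP7 and KIN10 as the transfected genes. Sequences were read from RefSeq TAIR10.1, where each member has the start and end of the files, and aligned with Biopython 1.88.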

Additional observations from a re-analysis of the deposited data

How the results depend on the processing

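The 4 nitrate rises in each genotype and the rises of NIA1 and NIR1 with NLP7 and KIN10 over GFP kept direction and call under every alternative run, but not their size. With TMM factors NIA2 with nitrate went from 1.421 to 0.621 in Ler and from 1.107 to 0.633 in KIN10ox, and NLP7 with KIN10 over GFP went from 0.810 to 0.461 for NIA1 and from 0.802 to 0.453 for NIR1. Scaling over the listed genes brings their median nearer to 0 by construction. With TMM factors and with size factors, NIA2 in KIN10ox against Ler with KCl gave 0.355 and 0.359, UPM1 gave −0.088 and −0.086, and the interaction gave 0.011 and 0.007 for NIA2, 0.186 and 0.184 for NIR1, and 0.072 and 0.072 for UPM1. NLP7 with KIN10 against NLP7 then gave 0.316 and 0.108 for NIA1, and 0.198 and −0.011 for NIR1, and NLP7 against GFP gave 0.145 for NIA1 with TMM factors. With size factors calls fell to 1051 from 1692 in the comparison of NLP7 with GFP, and to 965 from 1554 when KIN10 joined NLP7. With TMM factors the split of higher to lower calls went from 523 to 259 into 293 to 359 for nitrate in Ler, from 502 to 384 into 344 to 398 in KIN10ox, from 75 to 59 into 52 to 77 between genotypes with KCl, and from 26 to 85 into 69 to 41 with KNO3. It went from 1572 to 120 into 623 to 517 for NLP7, from 545 to 96 into 381 to 182 for NLP7 with KIN10 against GFP, and from 66 to 1488 into 494 to 554 against NLP7. NIA1 with KNO3 lost its call without the count filter (0.301) and with TPM as the scale (0.303); the cause was not tested. DESeq2 called 41 genes in the interaction, NIA1 included (−0.671). Without the KIN10ox KCl libraries 1 and 3 the KCl comparison had 44 calls against 134, UPM1 stood at −0.017, and the interaction had 1 call.

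Leaving out each library in turn gave −0.092 to 0.093 for UPM1 and 74 to 179 calls with KCl (74 without Ler KCl 2, 88 without KIN10ox KCl 1). With KNO3 it gave 0.260 to 0.376 for NIA1, −0.058 to 0.051 for NIR1 and 52 to 115 calls (69 without KIN10ox KNO3 2; 52, 60 and 61 without Ler KNO3 1, 2 and 3). The interaction gave −0.712 to −0.596 for NIA1 and 0 to 19 calls (19 without KIN10ox KCl 2, 15 without Ler KCl 1, 2 without KIN10ox KNO3 3). The gain with nitrate in KIN10ox minus Ler ranged from −66.9 to 43.0 FPKM for NIR1 and from −73.5 to −12.0 FPKM for NIA2. With a pseudocount of 0.1 or 5, or without the filter on low values, as few as 1 of the 3 nearest genes of NIR1 or NIA2 remained.

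Same-numbered libraries were not taken as pairs, since not every pair correlated above 0.1: 8 of 18 root pairs (−0.255 to 0.378) and 1 of 9 protoplast pairs did, and 6 of 12 and 2 of 9 libraries correlated best with their own number. With the replicate block NIA1 with KNO3 stood at 0.304 (adjusted p = 0.052, edgeR), and no other call on a member changed.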
